A study of Homo sapiens with 8 samples.

Results

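The genes described here encode chaperones and lectins of the endoplasmic reticulum, 10 in all: HSPA5, HYOU1, HSP90B1, DNAJB11, DNAJC3, SDF2L1, CANX, CALR, UGGT1 and PPIB. They were taken by name, as the probe sets that the array's annotation assigns to 1 of these symbols and to no other gene, and all 10 were among the 14726 genes tested. The cells were H1, an established line of human embryonic stem cells kept on irradiated mouse embryonic fibroblasts, and they were separated by forward and side scatter on a flow cytometer, with no other treatment named. Small cells and large cells of that line were each sorted 4 times, and the total RNA of each sort went onto its own array with 1 colour, which gave 8 arrays. The submitters call the sorts biological repeats but the labels used here do not tie them to separate cultures, so the p-values measure the spread between sorts. Both fractions come from 1 line in 1 culture system, and the fractions are known here only by their scatter.

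Proteins that enter the secretory pathway fold in the lumen of the endoplasmic reticulum. HSPA5, also called BiP, is the Hsp70 chaperone of that compartment, and J-domain proteins such as DNAJB11 and DNAJC3 stimulate its ATP cycle. Glycoproteins fold on the lectins calnexin (CANX) and calreticulin (CALR), and UGGT1 adds a glucose back to the glycan of a protein that is still unfolded, which returns it to these lectins. When unfolded proteins accumulate, the transcription factors ATF6 and XBP1 raise many of these genes through a promoter element named the endoplasmic reticulum stress response element (ERSE), to which NF-Y also binds.

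That element or its short form stood in 6 of the 10 promoters, and the windows of HSPA5, CANX, HYOU1 and UGGT1 are shown because HSPA5, CANX and UGGT1 passed the test below and HYOU1 held the most matches. Each is the 250 bases before a transcription start of the gene in RefSeq (GRCh38.p14), the first one listed, read 5′ to 3′ on the gene's strand, with matches to ERSE, ERSE-II or the XBP1 site, spelled out below the windows, in capitals and everything else in lower case. The HSPA5 window is chr9:125241344-125241593 (minus strand), the CANX window chr5:179698679-179698928 (plus strand), the HYOU1 window chr11:119057206-119057455 (minus strand) and the UGGT1 window chr2:128090950-128091199 (plus strand). The windows of 9 of the 10 genes end at the edge of the annotated gene, while the CANX window lies inside it, with its start 20.3 kb from the gene's first base, and is 1 of 4 windows listed for CANX, of which 2 hold ERSE.
HSPA5: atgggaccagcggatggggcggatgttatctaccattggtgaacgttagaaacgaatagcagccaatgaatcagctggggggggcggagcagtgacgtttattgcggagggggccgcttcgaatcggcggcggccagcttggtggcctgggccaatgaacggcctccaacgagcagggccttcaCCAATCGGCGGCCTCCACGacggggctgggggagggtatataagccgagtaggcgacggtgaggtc
CANX: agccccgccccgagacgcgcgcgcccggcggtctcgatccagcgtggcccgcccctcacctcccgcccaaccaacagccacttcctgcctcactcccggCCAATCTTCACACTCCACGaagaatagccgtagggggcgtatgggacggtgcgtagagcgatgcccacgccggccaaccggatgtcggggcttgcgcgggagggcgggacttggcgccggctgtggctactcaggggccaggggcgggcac
HYOU1: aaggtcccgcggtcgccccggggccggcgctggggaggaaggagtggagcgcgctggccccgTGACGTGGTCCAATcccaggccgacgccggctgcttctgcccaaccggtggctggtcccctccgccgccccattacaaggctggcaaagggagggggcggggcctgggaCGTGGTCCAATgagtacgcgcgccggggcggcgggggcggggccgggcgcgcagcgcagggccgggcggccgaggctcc
UGGT1: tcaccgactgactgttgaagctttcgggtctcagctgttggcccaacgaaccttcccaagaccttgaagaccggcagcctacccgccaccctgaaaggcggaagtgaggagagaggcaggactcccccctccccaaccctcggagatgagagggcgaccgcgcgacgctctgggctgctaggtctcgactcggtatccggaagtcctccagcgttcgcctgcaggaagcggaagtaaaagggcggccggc

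The motifs searched on both strands were ERSE, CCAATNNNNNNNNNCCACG, the shorter ERSE-II, ATTGGNCCACG, and the XBP1 site TGACGTGG. ERSE and ERSE-II both carry the letters CCAAT, on 1 strand or the other, and in HYOU1 the upstream ERSE-II overlaps the XBP1 site. The exact matches are written on the motif's own strand with its fixed letters in capitals. They show how the spacer differs between genes, while the ends are the same because the search required them.
HSPA5: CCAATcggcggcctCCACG
HSP90B1, upstream match: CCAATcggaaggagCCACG
HSP90B1, downstream match: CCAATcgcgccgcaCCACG
CANX: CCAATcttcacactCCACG
CALR: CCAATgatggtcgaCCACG
HYOU1, both matches: ATTGGaCCACG
SDF2L1: ATTGGtCCACG

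ERSE was found in 4 of the 10 windows and in 0.0806% of the windows of 27305 genes, and ERSE-II in 2 of 10 and in 0.0513% of all windows. The XBP1 site stood in 1 of 10 windows, that of HYOU1, and in 0.667% of all windows. The letters CCAAT alone stood in 9 of 10 and in 33.0% of all. These shares only describe the windows and are no test of enrichment. The element was already known to act on many of these genes, and the motifs were chosen after the calls were known. The HSPA5 match lay 66 to 48 bases before the start, nearer to it than the CANX match, which began 151 bases before it. The windows of UGGT1, DNAJB11, DNAJC3 and PPIB held none of ERSE, ERSE-II and the XBP1 site, which says only that these letters are not in them.

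Small cells had less HSPA5, CANX and UGGT1 RNA, relative to the RNA measured, than large cells, by 1.84-fold to 2.09-fold. None of the 10 genes was called higher. HYOU1, HSP90B1 and DNAJC3 had differences of similar size that did not pass the test, while CALR and SDF2L1 were close to 0 or slightly positive. Values are log2 intensities after quantile normalization, and a gene counted as called if its adjusted p was under 0.05 in limma over all genes. With 3 of 10 called lower, the genes stood against 1.69% of all tested genes called lower and 0.278% called higher. The 10 genes were chosen with earlier results of these data known, so this contrast only describes them and is no test of enrichment. The median of their log2 differences was -0.77 (small minus large, range -1.13 to 0.27), beside 0.05 for all tested genes. On 4 of the 10, HSPA5, CANX, DNAJC3 and UGGT1, the 4 small values all lay under the 4 large values, as they did for 5.11% of all genes. With 75th percentile scaling in place of quantile normalization, 148 genes of the whole array were called lower and 62 higher, against 249 and 41 as reported. In bulk RNA, fewer cells that express a gene and less of its RNA per cell cannot be told apart.

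**Figure D1:**
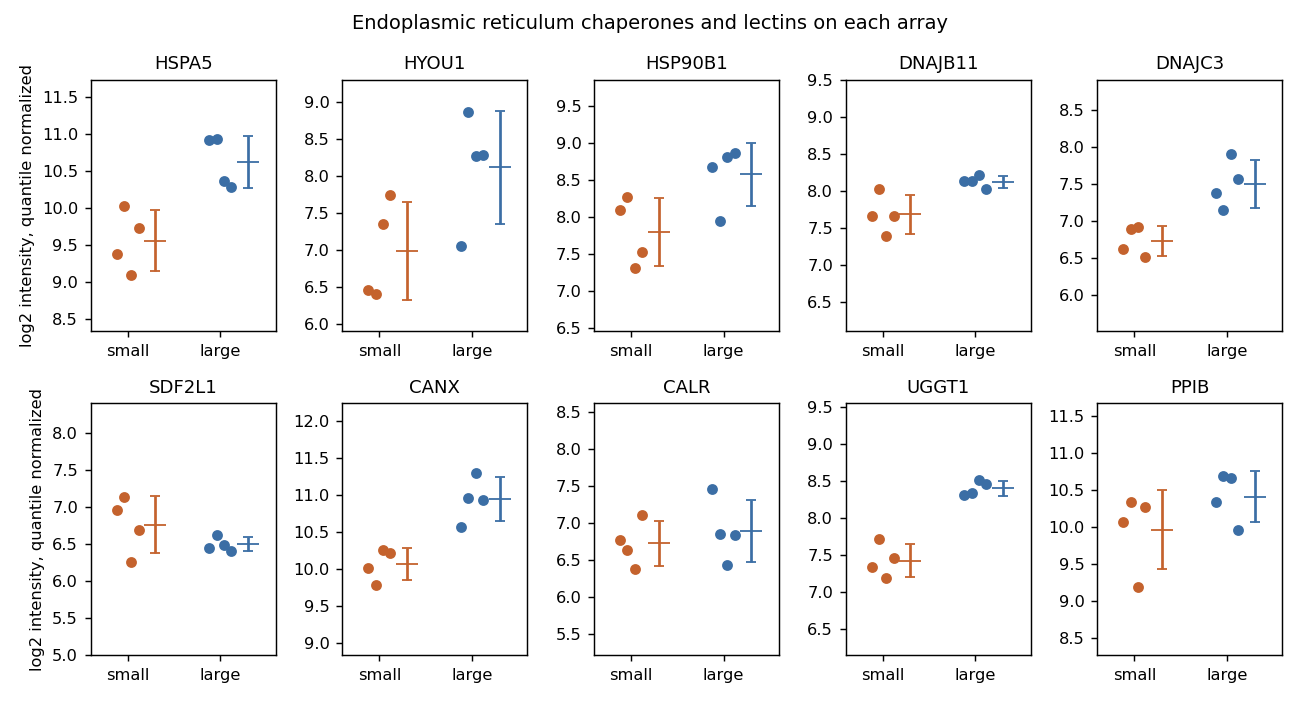
Log2 intensity after quantile normalization (vertical axis, the same span in each panel) of each of the 10 genes on the 4 small and 4 large arrays. Points are arrays in the order 1 to 4 and bars are mean ± SD; small and large points are apart for HSPA5, CANX, DNAJC3 and UGGT1 and overlap for the other 6 genes.

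Among the Hsp70 chaperones, HSPA5 (probe set 211936_at) was at 9.38, 10.03, 9.10 and 9.73 on small arrays 1 to 4, against 10.92, 10.93, 10.37 and 10.28 on large arrays 1 to 4. The highest small array, small 2, was still under the lowest large array. The mean was 9.56 ± 0.41 in small and 10.62 ± 0.35 in large cells (SD, n = 4 each), a log2 difference of -1.06 ± 0.21 (moderated SE) or 2.09-fold lower (limma, adjusted p = 0.0230). The call was lost without small array 1 (adjusted p = 0.0847) and without large array 2 (adjusted p = 0.0623). HYOU1, a large relative of Hsp70 that acts as nucleotide exchange factor for HSPA5 (200825_s_at), was at 6.46, 6.40, 7.34 and 7.74 on the small arrays, against 7.05, 8.86, 8.26 and 8.29 on the large arrays. Large array 1 lay inside the range of the small arrays, and the other large arrays lay above all of them. Its difference of -1.13 ± 0.37, the most negative of the 10, did not pass (adjusted p = 0.138) and passed without large array 1 (-1.49, adjusted p = 0.0249). HYOU1 was called lower in 4 of the 23 alternative settings of the analysis run for it.

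HSP90B1, also called GRP94, is the Hsp90 chaperone of the compartment and folds integrins and Toll-like receptors. It was at 8.09, 8.27, 7.30 and 7.52 on the small arrays, against 8.68, 7.94, 8.81 and 8.86 on the large arrays. The groups overlapped because large array 2 was below small arrays 1 and 2. The difference was -0.78 ± 0.25 (limma, adjusted p = 0.132). HSP90B1 was called lower in 1 of the 23 alternative settings run for it (limma with array weights, adjusted p = 0.0492). The gene is represented here by 2 probe sets of the kind marked _x_at, which can bind other transcripts, and 2 more probe sets that the annotation shares with another gene were left out.

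None of the 3 partners of HSPA5 passed the test. DNAJC3, a J-domain co-chaperone also known as an inhibitor of eIF2α kinases, was at 6.61, 6.89, 6.92 and 6.51 on the small arrays, against 7.38, 7.15, 7.91 and 7.57 on the large arrays. Its groups did not overlap, yet the difference of -0.77 ± 0.20 did not pass (limma, adjusted p = 0.0640). DNAJC3 was called lower in 5 of 24 alternative settings of the analysis, and in 0 of the 8 fits that left out 1 array. DNAJB11, a soluble J-domain protein that hands unfolded proteins to HSPA5, was at 7.67, 8.03, 7.39 and 7.66 on the small arrays, against 8.14, 8.13, 8.22 and 8.03 on the large arrays. Small array 2 was level with the lowest large array, and the difference of -0.44 ± 0.17 did not pass (adjusted p = 0.199). SDF2L1, which forms a complex with DNAJB11, was at 6.95, 7.14, 6.25 and 6.69 on the small arrays, against 6.45, 6.62, 6.49 and 6.41 on the large arrays. It was the only gene of the 10 with a positive difference, 0.27 ± 0.21 (adjusted p = 0.572; 0.14 without small array 2 and 0.43 without small array 3), with 3 small arrays above all large arrays and small array 3 below them.

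In the calnexin cycle, CANX, the membrane-bound lectin (200068_s_at), was at 10.01, 9.78, 10.25 and 10.23 on the small arrays, against 10.58, 10.97, 11.30 and 10.94 on the large arrays. All small values were under all large values, and its log2 difference was -0.88 ± 0.16, or 1.84-fold lower (limma, adjusted p = 0.0167). The call was lost when small array 1 or 2 or large array 3 or 4 was left out (adjusted p = 0.0631, 0.0550, 0.0545 and 0.0544 in that order), with 75th percentile scaling (adjusted p = 0.0519) and without _x_at and _s_at probe sets (adjusted p = 0.0660). UGGT1, the glucosyltransferase that senses folding (231968_at), was at 7.33, 7.71, 7.18 and 7.45 on the small arrays, against 8.30, 8.33, 8.51 and 8.45 on the large arrays. The large arrays spanned little and lay above every small array, and the gene was 1.97-fold lower in small cells (-0.98 ± 0.16, adjusted p = 0.00897). UGGT1 was called in each of the 8 fits that left out 1 array (adjusted p from 0.0117 to 0.0448).

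CALR, the soluble relative of CANX, was at 6.77, 6.64, 6.37 and 7.11 on the small arrays, against 7.46, 6.85, 6.43 and 6.84 on the large arrays. The ranges overlapped over most of their span and the difference was -0.17 ± 0.23 (limma, adjusted p = 0.778). PPIB, cyclophilin B, a prolyl isomerase that works with CANX and CALR, was at 10.07, 10.34, 9.19 and 10.27 on the small arrays, against 10.34, 10.70, 10.67 and 9.96 on the large arrays. Small array 3 was the lowest of the 8, large array 4 was below 3 small arrays, and the difference was -0.45 ± 0.24 (adjusted p = 0.368). The PPIB difference was -0.19 without small array 3.

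The calls depended on how the arrays were put on 1 scale and on the variance model. With the arrays left on their deposited scale, with each centred on its median, or with 1 prior variance for all genes in place of a trend, limma called 0 of the 10 genes and also 0 genes of the whole array lower, where 497, 1575 and 2234 genes had an unadjusted p under 0.05. The differences themselves moved less: HSPA5 ran from -1.21 to -0.82, UGGT1 from -1.08 to -0.73 and CANX from -1.07 to -0.71 over all 24 alternatives.

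**Figure D2:**
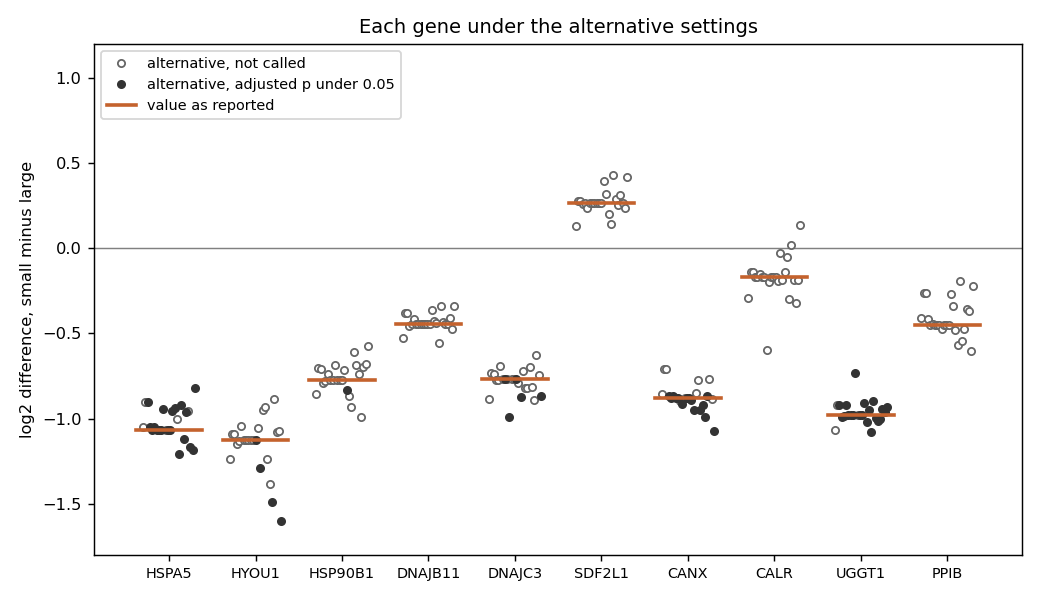
Log2 difference, small minus large (vertical axis), of each gene under the 24 alternative settings that apply to it, with the reported value as a line and filled points where the adjusted p was under 0.05. HSPA5, CANX and UGGT1 stayed below 0 under every alternative run and so did HYOU1, HSP90B1, DNAJB11, DNAJC3 and PPIB, while CALR crossed 0 in 2 of its settings and SDF2L1 stayed above 0.

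The 10 genes had 26 probe sets, of which 23 passed the filter on low values. Of those 23, 4 were called lower (limma over all tested probe sets, adjusted p under 0.05) and 0 higher, beside 1.31% and 0.192% of all tested probe sets. A negative difference was seen on 21 of the 23. All 4 tested probe sets of CANX were lower on every small array than on every large array, and 2 of them were called. Such a separation was seen on 11 of the 23 sets and for 5.11% of all tested genes, and its share over all probe sets was not computed. The 4 CANX sets measure 1 gene on the same arrays and are not separate observations. The second called set of CANX, 208852_s_at, was at 7.99, 7.95, 7.36 and 7.86 on the small arrays, against 8.73 to 9.17 on the large arrays. Its difference was -1.15 ± 0.18 (adjusted p = 0.0118), larger than that of the set used for the gene.

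Probe sets of 1 gene did not always move alike. For UGGT1, sets 218257_s_at and 222568_at had differences of -0.91 ± 0.23 and -0.88 ± 0.30, near the -0.98 of the called set, whereas 222569_at had -0.16 ± 0.22 with overlapping groups. For HSPA5, the dimmer 230031_at had -0.82 ± 0.25 and was not called (adjusted p = 0.137). The 3 probe sets of CALR had -0.59 ± 0.42, -0.17 ± 0.24 and 0.16 ± 0.37, none called, so the sign of CALR is not settled by these arrays. The 2 sets of PPIB gave -0.45 and -0.49.

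**Figure D3:**
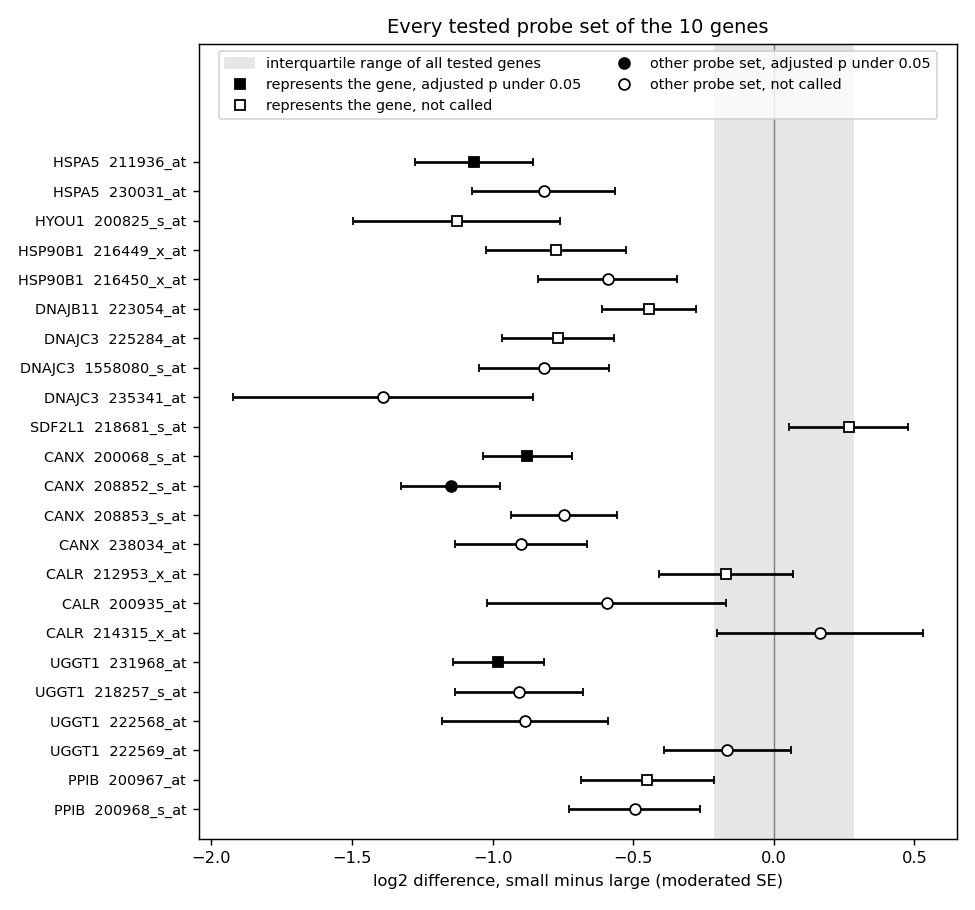
Log2 difference, small minus large, with moderated SE (horizontal axis) for the 23 tested probe sets of the 10 genes. Squares are the sets that represent a gene, circles the others, filled symbols are called and the grey band is the interquartile range of all tested genes; 21 of the 23 lie left of 0.

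Other genes of the endoplasmic reticulum, of the Golgi or of the traffic between them were taken from lists. These held co-chaperones, glycan-trimming enzymes, further lectins, prolyl isomerases and retrieval receptors. Of 46 such genes 43 were tested, and 6 were called lower and 0 higher, beside 1.69% and 0.278% of all tested genes. Their median difference was -0.32, beside 0.05 for all tested genes. The lists were chosen with earlier results of these data known. In the list of co-chaperones and regulators of HSPA5, 2 of 12 tested genes were lower. SEC63 is the J-domain protein of the translocation channel (-0.78 ± 0.18, limma, adjusted p = 0.0408). MESD, also in that list, is a chaperone for LDL receptor relatives and not a co-chaperone of HSPA5 (-0.78 ± 0.16, adjusted p = 0.0281). Of 9 partners of the calnexin cycle 2 were lower. PDIA3, the disulfide isomerase that binds CANX and CALR, was at 9.29, 9.58, 9.55 and 9.87 on the small arrays, against 10.61, 10.63, 11.19 and 10.67 on the large arrays (-1.21 ± 0.16, adjusted p = 0.00645). GANAB, the catalytic subunit of glucosidase II, which trims the glucoses that CANX and CALR read, had a difference of -1.12 ± 0.22 (adjusted p = 0.0240).

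Among 12 other lectins and mannosidases, 2 were called lower. These were OS9, which delivers misfolded glycoproteins to degradation (-1.03 ± 0.22, limma, adjusted p = 0.0290), and LMAN1, a cargo lectin between the endoplasmic reticulum and the Golgi (-0.81 ± 0.15, adjusted p = 0.0204). Of the 7 other prolyl isomerases none was called, and the members with the smallest p were PPIC (-0.54 ± 0.23, adjusted p = 0.260) and FKBP14 (-0.51 ± 0.35, adjusted p = 0.518). None of the 3 tested retrieval genes was called, with KDELR1 at -0.22 ± 0.16 and KDELR3 at 0.29 ± 0.21.

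**Figure D4:**
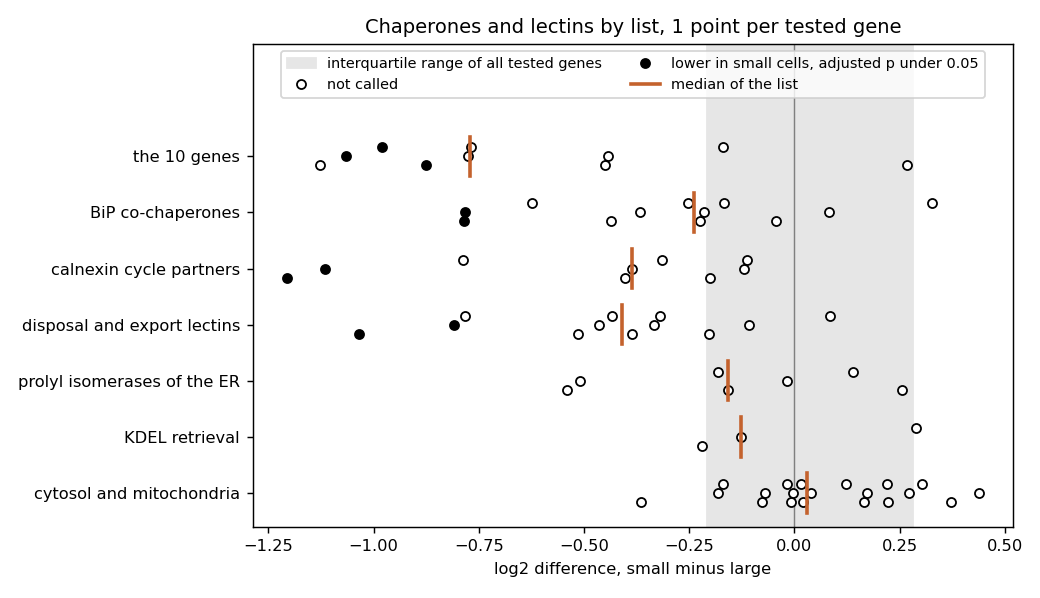
Log2 difference, small minus large (horizontal axis), of every tested gene in the 10-gene group and in 6 lists, with list medians as lines, called genes filled and the interquartile range of all tested genes in grey. Medians run from -0.77 for the 10 genes to 0.03 for chaperones of the cytosol and mitochondria, where no gene was called.

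Chaperones of the cytosol and mitochondria, relatives of the same proteins, had a median difference of 0.03. Of 20 tested genes 0 were called in either direction, beside 1.69% lower and 0.278% higher over all tested genes. Mitochondrial HSPA9 was at 10.84, 10.55, 10.87 and 10.68 on the small arrays, against 10.74, 10.75, 11.20 and 10.92 on the large arrays (-0.17 ± 0.13, limma, adjusted p = 0.572). Cytosolic HSP90AB1 had a difference of -0.36 ± 0.14, mitochondrial TRAP1 of 0.02 ± 0.11, cytosolic cyclophilin PPIA of -0.01 ± 0.08 and PPID of 0.44 ± 0.17, none of them called. The log2 ratio of 2 genes on the same array does not depend on the array's scale apart from the pseudocount and the normalization, and 4 such pairs were compared.

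The ratio of HSPA5 to HSPA9 was -1.46, -0.52, -1.77 and -0.95 on the small arrays, against 0.18, 0.18, -0.84 and -0.64 on the large arrays. Small array 2 lay above large arrays 3 and 4, so the groups overlapped, and the difference of -0.90 did not pass (exact two-sided permutation over 70 assignments, p = 0.114, adjusted p = 0.229 over 4 pairs). HSP90B1 against TRAP1 differed by -0.79 (exact permutation p = 0.0857, adjusted p = 0.229), HSP90B1 against HSP90AB1 by -0.41 (p = 0.286, adjusted p = 0.286) and PPIB against PPIA by -0.44 (p = 0.229, adjusted p = 0.286). The smallest p this test allows is 0.0286. None of the 4 pairs passed with the probe sets used here, and with them a difference between HSPA5, HSP90B1 or PPIB and these relatives was not shown. With adjustment over 4 pairs, 1 pair alone at that smallest value has an adjusted p of 0.114 in this exact permutation test. A lone pair could thus not pass, and the outcome does not say that the pairs are alike. A planned pair of HSPA5 with HSPA8 was not compared, since no probe set is assigned to HSPA8 alone.

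Genes with the element and genes without it were both among those called lower. Among the 10, the genes with an ERSE or ERSE-II match were HSPA5 and CANX, both called lower, HSP90B1 and HYOU1, with negative differences that did not pass, and CALR and SDF2L1, at -0.17 and 0.27. UGGT1, called lower, had no match. Of 30 other genes with such a match 23 were tested, and 0 were called in either direction in limma. Over all tested genes 1.69% were called lower and 0.278% higher, so a count of 0 does not set these 23 apart. These 23 genes had 11 negative and 12 positive differences and a median of 0.04. Known genes of the endoplasmic reticulum stress response or of folding among them, named after their values were seen, were NUCB1 (-0.99 ± 0.29), XBP1 itself (-0.75 ± 0.18, adjusted p = 0.0575), FICD (-0.44 ± 0.21), ERO1B (-0.14 ± 0.25), CRELD2 (-0.0012 ± 0.15), HERPUD1 (0.04 ± 0.16) and SERP1 (0.33 ± 0.12).

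Quality and cell type were read from the same arrays. Before normalization the small arrays had 75th percentiles of intensity between 45.5 and 104, and the large arrays between 42.0 and 106. The 3 prime to 5 prime log2 difference of the GAPDH and ACTB control probe sets, which grows as RNA degrades, averaged 2.38 ± 0.54 in small and 2.12 ± 0.40 in large cells (SD, n = 4 each, exact two-sided permutation p = 0.486). It was highest on small array 3, at 3.08, where HSPA5, HSP90B1, DNAJB11, SDF2L1, CALR, UGGT1 and PPIB were at their lowest of the small arrays. With it as a covariate HSPA5 had a difference of -0.95 (limma, adjusted p = 0.0437), CANX of -0.89 (adjusted p = 0.0320) and UGGT1 of -0.91 (adjusted p = 0.0209), while PPIB, not called, had -0.27.

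The pluripotency factor NANOG averaged 10.67 ± 0.08 in small and 10.73 ± 0.07 in large cells, while POU5F1 has no probe set of its own here. Of 14 pluripotency markers tested 2 were called lower, the surface proteins PODXL (-0.98 ± 0.15) and EPCAM (-0.54 ± 0.11). The share over all tested genes was 1.69% called lower and 0.278% higher, so a count of 0 in the short marker lists does not set them apart. The summed intensity of that list ran from 27609 to 31295 on small and from 31809 to 35783 on large arrays. Of 12 fibroblast and 8 neural markers tested none was called, and the summed intensity ran from 5108 to 6405 and from 1595 to 3288 on small arrays, against 3895 to 7278 and 1699 to 3121 on large arrays. Sums follow the brightest genes, and single markers differed more: 7 of the 8 neural markers had positive differences, with PAX6 at 1.77 ± 0.52 (limma, adjusted p = 0.105) and STMN2 at 1.15 ± 0.48 (adjusted p = 0.248). Both were dim on the large arrays, with means of 3.71 for PAX6 and 3.36 for STMN2, beside 3.62 for the filter on low values. Among the fibroblast markers VIM had 1.12 ± 0.30 with all small arrays above all large arrays (adjusted p = 0.0735) and SPARC -0.43 ± 0.14 (adjusted p = 0.126). All 8 tested endoderm markers had positive differences and none was called, with sums of 297 to 999 on small and 196 to 635 on large arrays, while FOXA2, GATA4 and HNF4A were not among the tested genes. The endoderm markers with the smallest p were TTR, at 1.33 ± 0.51 with groups that did not overlap (limma, adjusted p = 0.208), and GATA6, at 0.68 ± 0.32 (adjusted p = 0.310). The part of these markers in the differences of the 10 genes was not tested.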

How the data were processed

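RNA of 4 small and 4 large H1 sorts was measured on Affymetrix U133 Plus 2.0 arrays. Per the series design text, the submitters took scan data from Affymetrix's operating software into Rosetta Resolver 7.1, where they also averaged replicates; the values used here are per array. The deposited table holds 1 linear intensity per probe set and array; its background correction and scaling are not given in the sources used here.

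Intensities were converted to log2 after adding 1.81, the 10th percentile of all values, which understates the folds of dim genes, and quantile normalized, because the arrays' 75th percentiles differed by up to 1.33 on the log2 scale. Of 54675 probe sets, 62 controls were left out, and 32768 with a mean over the 40th percentile (3.62) were tested. Symbols came from GEO's platform annotation, updated by gene ID through RefSeq: 41091 probe sets had 1 symbol, 1801 several and 11721 none. Each of 14726 genes was represented by its brightest tested probe set. Names ending in _x_at or _s_at mark sets that may bind more than 1 transcript.

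Groups came from the titles. The test was limma 3.58.1 under R 4.3.3 (lmFit, eBayes with variance trend, two-sided, Benjamini-Hochberg adjustment across all genes or all probe sets). Pairs of genes were compared by exact permutation. The fits were tested on simulated data. The number of arrays limits the precision. The median SE over genes was 0.24.

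The 10 genes and the lists were chosen with earlier results of these data known. Named were all 10 genes, from each list up to 4 called genes or else the 2 with the smallest p, the genes of each pair, and the 5 genes most correlated with HSPA5 and with CANX. Promoters were those of RefSeq (GRCh38.p14), matched by symbol for all 10 genes, and the motifs were chosen after the calls were known. Alternatives covered scaling, pseudocount, filter, probe sets, variance model, replicate block, RNA quality, array weights and arrays left out.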

Additional observations from a re-analysis of the deposited data

Results flagged for a closer look

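On 1 of 54 sets of 4 values checked (the 23 probe sets and the 4 ratios, in each fraction), an array stood far from the other 3, where chance gives about 1 in 20. Probe set 235341_at of DNAJC3 was at 2.09 on small array 2, against 4.77 to 5.05 on the other small arrays and 5.44 to 5.82 on the large arrays. The other tested DNAJC3 sets, 225284_at and 1558080_s_at, were at 6.89 and 5.31 on that array, inside the range of the other small arrays.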

How the results depend on the processing

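The count of the 10 genes called lower was 3 as reported. It was 0 on the deposited scale, 0 with median centring and 0 with no variance trend, 5 with a replicate block, 6 with array weights, 5 without large array 1 and small array 3, and 1 to 4 with 1 array left out. For probe sets, 4 as reported, the count was 0 in the same first 3 settings, 2 without _x_at and _s_at sets, 9 with the replicate block, 8 with array weights, and 1 to 5 with 1 array left out. Over all genes 249 were lower and 41 higher; there were 148 lower and 62 higher with 75th percentile scaling, 514 and 237 with the replicate block, 536 and 287 with array weights, 457 and 314 once large array 1 and small array 3 were dropped, 300 and 66 under a filter at the 60th percentile, 166 and 26 without _x_at and _s_at sets, 170 and 21 with the 3 prime to 5 prime covariate, and 66 to 359 lower and 2 to 195 higher with 1 array left out. The arrays whose removal moved a count by over 1.5 times were small array 1 (1 of the 10 genes, 1 probe set, 66 genes lower and 2 higher over all genes), small array 2 (80 lower and 3 higher), small array 4 (244 and 19), large array 1 (359 and 195), large array 2 (2 probe sets, 144 and 16), large array 3 (1 probe set, 78 and 3) and large array 4 (1 probe set, 70 and 5). In those first 3 settings 0 genes were called in either direction (limma, 497, 1575 and 2234 genes at an unadjusted p under 0.05). The difference of CALR ran from -0.32 to 0.020 with 1 array left out, the positive value without large array 1, and it was 0.14 without large array 1 and small array 3. Without _x_at and _s_at sets, the ratio of HSPA5 to HSPA9, the only pair left to compare, differed by -1.11 (exact permutation p = 0.0286). The deposited scaling moved the median of all genes by -0.10. With 1 array left out the ratio of HSPA5 to HSPA9 ran from -1.10 to -0.70, HSP90B1 to TRAP1 from -1.01 to -0.62, HSP90B1 to HSP90AB1 from -0.65 to -0.16 and PPIB to PPIA from -0.61 to -0.19. Arrays of equal number correlated in their deviations from the group means at 0.11, 0.13, 0.23 and 0.01. Of the 4 small arrays, 3 correlated best with the large array of their number. The planned fit had no pairing, and this was kept because 1 of the 4 values was under 0.1. That cut was not in the plan. The counts given for the replicate block are those with arrays paired by number. The cause of these changes was not tested.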

Other observations

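As a description of likeness over the 8 arrays, which share groups and normalization, the genes outside the 10 whose log2 values correlated most with HSPA5 were ADGRA3, STRAP, TMX2, NACA4P and CHST6 (Pearson r from 0.97 to 0.98). Those most like CANX were TMX1, FAM171A1, SPINT2, SV2A and LMAN1 (r from 0.98 to 0.99). Of these, NACA4P (-1.08), TMX1 (-1.03), SPINT2 (-1.07) and LMAN1 (-0.81) were called lower in small cells by limma. HSPA5 and CANX were both lower in small cells. Over the deviations of the 8 arrays from their group means, r between the sets used for the 2 genes was -0.63. HSPA5 was lowest among small arrays on small array 3. There the CANX set used, 200068_s_at, and 238034_at were at their highest of the small arrays (10.25 and 6.31). In contrast, 208852_s_at was at its lowest there (7.36) and 208853_s_at in between (6.21). The r of -0.63 thus holds for the CANX set used, and r was not computed for the other sets.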
